A study of Drosophila melanogaster with 2 samples.

Results

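The genes of 10 enzymes of glycogen, trehalose and glucose metabolism were examined for regions occupied by the forkhead transcription factor foxo in Drosophila larvae. The 10 genes were Glyp, Glys (also written GlyS), Tps1, Treh, Hex-A, Hex-C, Pfk, Ldh, fbp and Pepck1, out of 13945 protein-coding genes and 18164 genes in all. They were matched by symbol, and all 10 were found in the annotation. A region was counted for a gene when its summit, the base of highest signal, lay inside the gene body or within 5 kb of it. The measurement was chromatin immunoprecipitation sequencing (ChIP-seq), which maps the DNA that a protein occupies. There was 1 group with 2 biological replicates, numbered 5 and 6: whole wandering larvae of the third instar, pooled male and female and of unknown age. Per the labels they carried a stable transgene for foxo joined at its C-terminus to green fluorescent protein (GFP), and the precipitation was directed at the GFP tag, although the antibody field names foxo. The promoter driving the fusion was not given in the sources used here, whole animals mix the chromatin of all tissues, and larvae without the tag were not analysed here. No genotype, diet or stage was compared, so each value describes occupancy in these larvae and not a response to treatment.

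Foxo is held back by insulin signalling and acts in the nucleus when that signal is low. In mammals, FOXO proteins are known for raising genes of glucose production in the liver. In flies, the fat body stores sugar as glycogen and secretes trehalose, the main sugar of the hemolymph. Glycogen phosphorylase (Glyp) releases glucose units from glycogen, and glycogen synthase (Glys) adds them. Tps1 makes trehalose and Treh, trehalase, splits it into glucose. The hexokinases Hex-A and Hex-C add the phosphate that traps glucose in the cell, Pfk (phosphofructokinase) commits it to glycolysis, and Ldh (lactate dehydrogenase) interconverts pyruvate and lactate. Pepck1 (phosphoenolpyruvate carboxykinase) and fbp (fructose-1,6-bisphosphatase) run gluconeogenic steps that bypass irreversible steps of glycolysis.

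The DNA under 5 regions is shown because these carry the contrast between regions at a gene's own start and a region at the start of a neighbour. All are given from the plus strand of the RefSeq Release 6 (dm6) genome, with coordinates counted from 1. Capitals mark matches to searched motifs, which are GAGAGAG (read as CTCTCTC on this strand) in Ldh peak 1 and Hex-A, TGTTTTG in Ldh peak 2 and TGTTTAC in Glyp. The first 4 sequences lie upstream of the start of Ldh or of the gene named, and the last lies between the starts of CG10628 and Dus3, in the region counted for fbp. They span chr3L:6262728-6262928 (Ldh peak 1), chr3L:6262979-6263079 (Ldh peak 2), chr2L:2130481-2130743 (Glyp), chrX:9585474-9585674 (Hex-A) and chr2L:19758616-19758773 (fbp).
Ldh peak 1: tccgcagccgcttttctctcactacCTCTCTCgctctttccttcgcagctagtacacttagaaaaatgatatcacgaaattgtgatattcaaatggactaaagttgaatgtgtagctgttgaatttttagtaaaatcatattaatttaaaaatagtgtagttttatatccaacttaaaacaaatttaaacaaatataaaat
Ldh peak 2: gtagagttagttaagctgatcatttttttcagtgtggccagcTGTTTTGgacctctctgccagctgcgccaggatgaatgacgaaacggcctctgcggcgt
Glyp: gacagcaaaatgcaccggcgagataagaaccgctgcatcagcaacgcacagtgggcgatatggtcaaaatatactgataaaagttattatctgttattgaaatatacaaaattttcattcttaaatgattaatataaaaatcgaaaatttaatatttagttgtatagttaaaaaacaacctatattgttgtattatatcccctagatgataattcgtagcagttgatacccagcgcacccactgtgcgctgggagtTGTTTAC
Hex-A: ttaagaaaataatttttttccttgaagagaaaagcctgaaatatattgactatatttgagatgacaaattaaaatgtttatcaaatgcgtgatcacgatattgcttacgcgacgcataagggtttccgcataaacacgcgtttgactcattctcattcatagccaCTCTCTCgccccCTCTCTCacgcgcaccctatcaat
fbp: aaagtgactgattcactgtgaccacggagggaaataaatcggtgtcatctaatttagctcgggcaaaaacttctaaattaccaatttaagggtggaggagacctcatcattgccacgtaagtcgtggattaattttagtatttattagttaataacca

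IDR regions of foxo were found at 6 of the 10 genes, and none had its summit inside a gene body. The strictest deposited list, thresholded by irreproducible discovery rate (IDR, a method that compares how replicates rank regions), held 1427 regions. It placed 7 of them at the 10 genes: 2 at Ldh and 1 each at Hex-C, Glyp, Hex-A, Treh and fbp. Thus 6 of 10 genes held an IDR region in the gene body or within 5 kb, against a background of 20.0% of protein-coding genes. Within 1000 bp of one of the gene's own transcription start sites (TSSs) the count was 4 of 10 (Ldh, Glyp, Hex-A and Treh), against a background of 7.71%. Glys, Tps1, Pfk and Pepck1 held no IDR region, and the nearest lay 46093, 55195, 7998 and 82140 bp outside those genes. The members had longer windows, with a median of 14295.5 bp against 12166 bp for protein-coding genes. Among genes with windows as long as those of the members, from 11493 to 24928 bp, 21.6% held an IDR region. Per 100 kb, the member windows held 4.55 IDR regions and the windows of all protein-coding genes held 1.55. No test was made on these counts, since the genes were not a random draw and were chosen with earlier results of these data known.

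**Figure D1:**
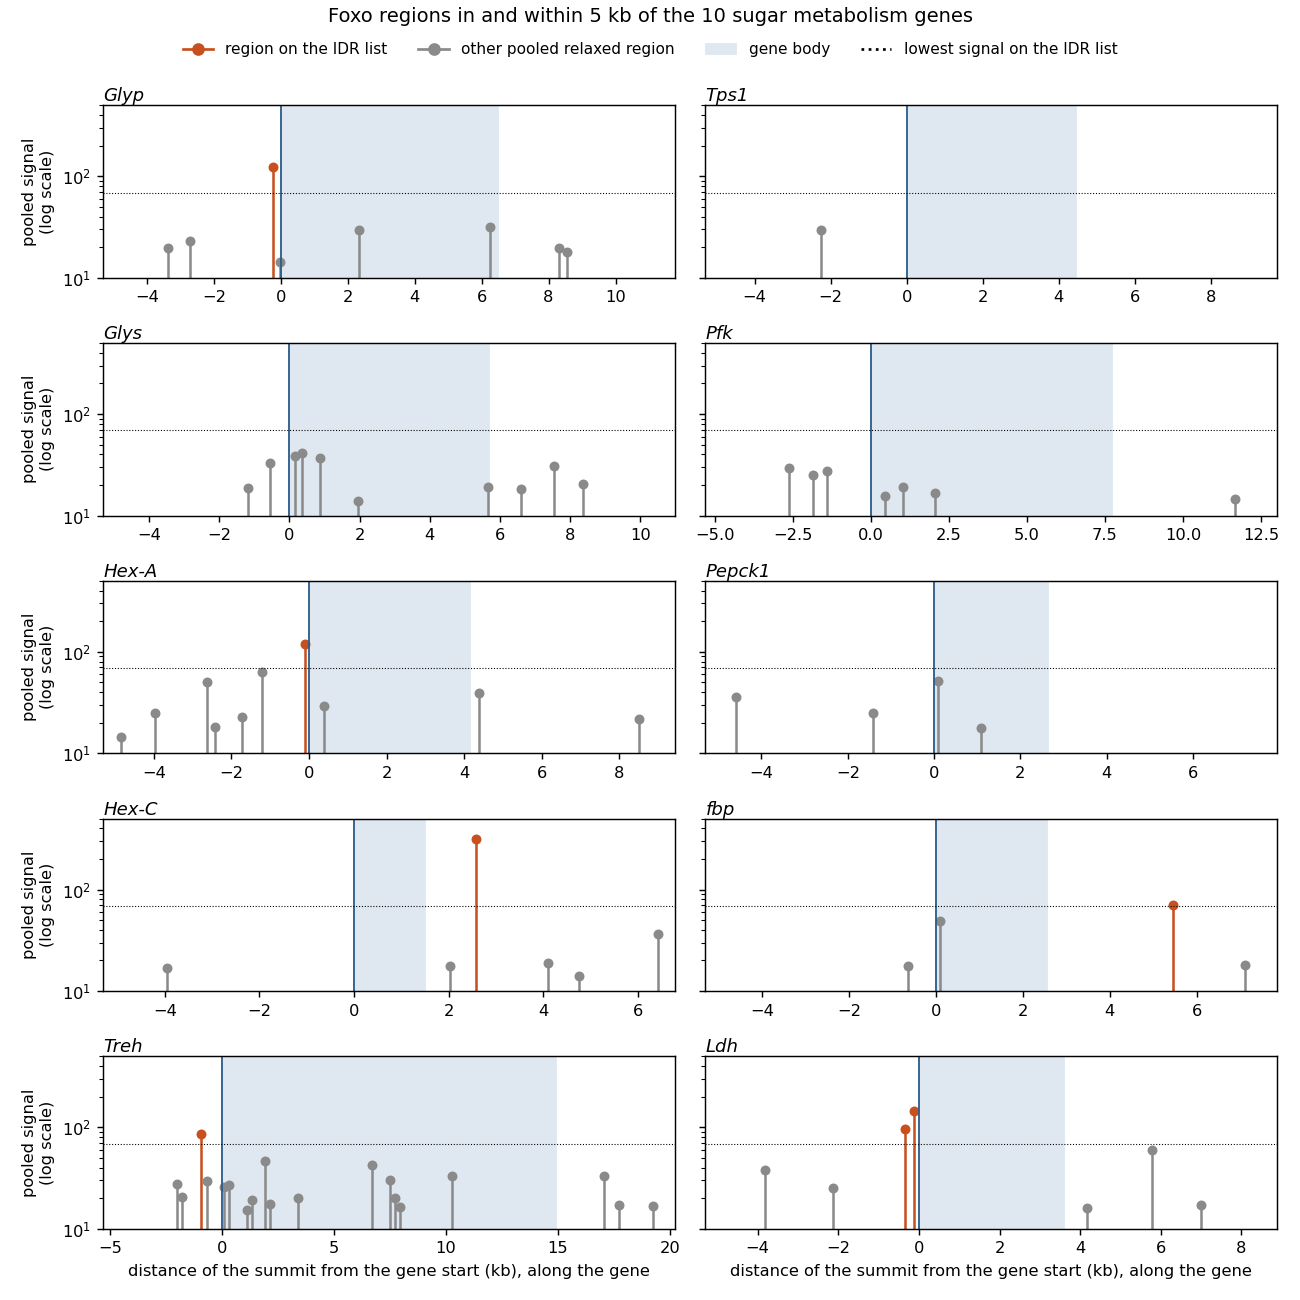
Foxo regions around the 10 genes, by distance in kb, with the gene body as a bar and each point a region summit at its signal in the pooled list; IDR regions are set apart from weaker ones. The 7 IDR summits all lie outside the gene bodies, and Glys, Tps1, Pfk and Pepck1 have none.

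The level of each region was the authors' signal, on a scale that is not stated, so a region is placed by its rank within a list and signals are not compared between lists. The IDR list was the same as the 1427 highest regions of the pooled list, in which signals ran from 69.0 to 745 with a median of 90.6. Each replicate also had a relaxed list of 30000 regions. The authors' q was 0.01 or lower for 1061 of them in replicate 5, but for 6870 in replicate 6. Read numbers are unknown. Of the 1427 IDR regions, 617 (43.2%) were matched within 150 bp among the 1427 highest regions of both replicates.

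The glycogen enzymes differed from each other. The Glyp region (FBgn0004507; gene on the plus strand of 2L, 2130813 to 2137296; region 2130391 to 2130770) had its summit 232 bp upstream of the gene's only TSS, with no other gene's start within 1000 bp. Its pooled signal of 122.63 ranked 310 of 1427. It had a signal of 81.6 and rank 179 in replicate 5, and a signal of 41.8 and rank 1479 in replicate 6, where a higher overlapping region with its summit 162 bp away ranked 934. Only 1.91% of protein-coding genes had a pooled region this high within 1000 bp of an own TSS. At Glys (FBgn0266064; minus strand of 3R, 15141843 to 15147531), which has 4 TSS positions, the highest pooled region lay in the 5′ UTR 56 bp from a TSS with a signal of 41.7, rank 4391 and q = 0.0215, and 20.5% of genes had one as high. That region ranked 13046 in replicate 5 and had no match within 150 bp in replicate 6. The best Glys regions in the replicates were others. In replicate 5 it lay 520 bp upstream of a TSS, with rank 4759 and q = 0.191. In replicate 6 it lay 28 bp downstream of a TSS, with rank 3574. Its q there of 0.000136 was the lowest of that list and equal to that of the Glyp region. On the IDR list, the enzyme that breaks glycogen down held a region at its start, and the enzyme that builds glycogen held none.

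Trehalase and the trehalose-making enzyme also differed in rank. The Treh region (FBgn0003748; gene on the plus strand of 2R, 21074018 to 21088945; region 21072884 to 21073263) had a pooled signal of 86.7 and ranked 804. It ranked 372 in replicate 5 (signal 60.4) and 3219 in replicate 6 (signal 30.2). Its summit lay 944 bp upstream of a Treh TSS but only 285 bp upstream of the start of CG10527, so Treh was not its nearest gene. A weaker region in a Treh intron, 273 bp downstream of a TSS, had a signal of 46.4 and rank 3528, with q = 0.00893. At Tps1 (FBgn0027560; plus strand of 2L, 4388327 to 4392778) the highest region in the window had a signal of 29.3, rank 8718 and q = 0.137. It lay 2246 bp upstream of Tps1 and 19 bp from the start of Vps53. The highest Tps1 regions in the window ranked 14801 in replicate 5 (q = 0.541) and 5025 in replicate 6 (q = 0.00229). Within 1000 bp of the Tps1 TSS the pooled list and replicate 6 held no region at all, and replicate 5 held one of rank 25201. Tps1 was the member with the fewest pooled regions for its size, at 0.692 per 10 kb against 3.16 to 7.62 for the other 9.

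Among the hexokinases, Hex-C had the highest region of the 10 genes, and Hex-A had a region at its own start. The Hex-C region (FBgn0001187; gene on the minus strand of 2R, 15218837 to 15220329; region 15217614 to 15217890) had a pooled signal of 318 and ranked 25 of 1427. It ranked 22 in replicate 5 (signal 183) and 38 in replicate 6 (signal 140), so it was near the top of every list. It did not lie at the start of Hex-C: its summit was 2590 bp downstream of the Hex-C TSS and 1098 bp past the gene's end. The nearest start was that of mRpL41, a mitochondrial ribosomal protein gene, 122 bp away, and CG8079 and lncRNA:CR44463 started 640 and 456 bp away. Within 1000 bp of its own TSS, Hex-C held no pooled region and only regions of rank 12233 in replicate 5 and 21982 in replicate 6. The Hex-A region (FBgn0001186; gene on the plus strand of X, 9585675 to 9589813; region 9585384 to 9585763) lay 101 bp upstream of an own TSS, with a pooled signal of 119.6 and rank 338. It ranked 168 in replicate 5 (signal 82.9) and 2330 in replicate 6 (signal 34.7). In replicate 6 the same stretch was divided among 3 overlapping regions, of ranks 2330, 2544 and 3452. Hex-A had another region 1201 bp upstream, in an exon of lncRNA:CR45541, with a pooled signal of 63.7 and rank 1750, just below the lowest IDR signal of 69.0. It ranked 3229 in replicate 5 and 2009 in replicate 6, where it was the highest region in the Hex-A window.

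After the hexokinase step, Ldh held IDR regions and Pfk held none. Pfk (FBgn0003071; plus strand of 2R, 10109740 to 10117457) had its highest pooled region 2627 bp upstream, in an intron of 14-3-3zeta, with a signal of 29.7 and rank 8482 (q = 0.130). Its highest regions in the window ranked 3552 in replicate 5 and 8941 in replicate 6. The highest region within 1000 bp of an own Pfk TSS ranked 18310 in the pooled list. Ldh (FBgn0001258; minus strand of 3L, 6259105 to 6262694) was the only member with 2 IDR regions. Peak 1 (6262638 to 6263017) had its summit 134 bp upstream of a TSS with a pooled signal of 146 and rank 202. It ranked 488 in replicate 5 (signal 52.6) and 119 in replicate 6 (signal 94.9). Peak 2 (6262839 to 6263218) had its summit 335 bp upstream, with a pooled signal of 96.9 and rank 594, and ranked 388 in replicate 6 (signal 65.9). Both peaks were matched to the same region in replicate 5, which lay between them. The summits were 201 bp apart. Of the 1427 IDR summits, 10 (0.701%) had another IDR summit as near, both Ldh summits included. The intervals overlapped from 6262839 to 6263017, so separate sites and a single broad region that was split cannot be told apart here. Weaker pooled summits could be as close, such as those 2623 and 2422 bp upstream of Hex-A. A non-coding transcript near Ldh, lncRNA:CR44522, started 571 bp from the summit of peak 1 and 370 bp from that of peak 2. The summit of peak 2 also lay in an exon of lncRNA:CR44522, so both regions are shared with it. Of protein-coding genes, 1.27% had a pooled region as high as Ldh within 1000 bp of an own TSS. A further Ldh-window region (signal 59.4, rank 2041) lay 255 bp from the start of Best2.

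The gluconeogenic enzymes had regions at their own starts below the IDR list. Pepck1 (FBgn0003067; plus strand of 2R, 18536767 to 18539416) had a region (18536676 to 18537055) 99 bp downstream of its TSS, in its 5′ UTR, with a pooled signal of 52.1, rank 2725 and q = 0.00385. It ranked 7367 in replicate 5 and 2711 in replicate 6. The summit also lay in coding sequence of CG45087, so the region is shared. The fbp gene (FBgn0032820; minus strand of 2L, 19761587 to 19764136) had a region in its own intron 97 bp downstream of a TSS, with a signal of 48.4, rank 3198 and q = 0.00547, which ranked 13283 in replicate 5 and 2252 in replicate 6. Its IDR region (2L, 19758483 to 19758862) had a signal of 70.1 and rank 1376 of 1427, close to the end of the list. That summit lay 2914 bp past the end of fbp, 58 bp from the start of CG10628 and 206 bp from that of Dus3. It ranked 729 in replicate 5 (signal 44.9) and 3249 in replicate 6 (signal 30.1). Counting pooled regions of q of at most 0.01 within the window gave 7 of 10 members (adding Pepck1), against a background of 38.9%. Within 1000 bp of an own TSS it gave 6 of 10, against 17.5%.

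**Figure D2:**
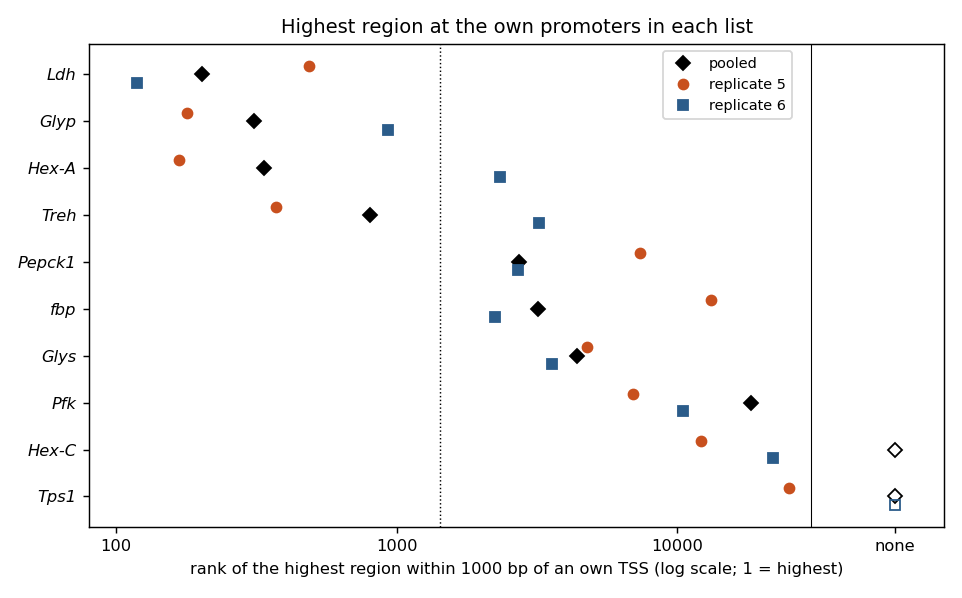
Rank of the best region within 1000 bp of an own TSS for each gene in the pooled list and in replicates 5 and 6, on a log scale, with a dotted line at rank 1427 and open symbols where a list has no region. Ldh, Glyp, Hex-A and Treh rank 202, 310, 338 and 804 in the pooled list, and Hex-C and Tps1 have no pooled region there.

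At only some of the genes was the IDR region nearest to the gene's own start. Of the 6 genes with IDR regions, 3 (Glyp, Hex-A and Ldh) had their own TSS as the nearest start for at least 1 region, against 35.3% of the 2788 protein-coding genes with an IDR region in the window. Hex-C, Treh and fbp had a neighbour's start nearer. No expression was measured, so which of the genes sharing a region responds to it was not tested.

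**Figure D3:**
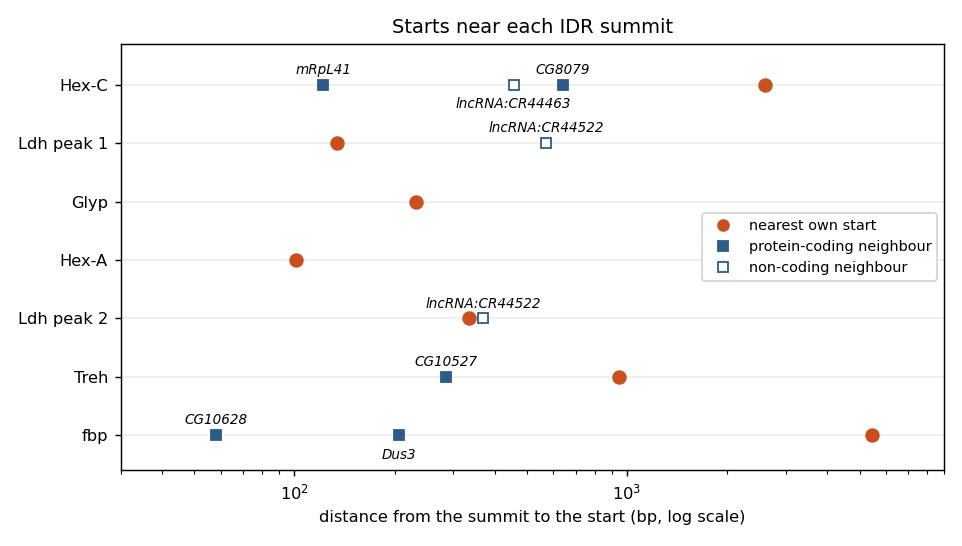
Distance in bp from each of the 7 IDR summits to the nearest start of the counted gene and to the starts of neighbouring genes within 1000 bp. The counted gene's own start is nearest for Glyp, Hex-A and both Ldh peaks.

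The replicates placed the regions differently, and not all in the same direction. The rank in replicate 6 divided by that in replicate 5 was 8.26 at Glyp, 13.9 at Hex-A, 8.65 at Treh and 4.46 at fbp. It was 1.73 at Hex-C, 0.795 at Ldh peak 2 and 0.244 at Ldh peak 1. Over the 1324 of 1427 IDR regions that were matched in both replicates the median was 1.17, with 0.0682 and 12.4 as the 5th and 95th percentiles. Among the 1427 highest regions of both replicates were 3 of the 7, Hex-C and both Ldh peaks, close to the share of all IDR regions (43.2%). The Ldh peaks were matched to a single region of replicate 5. A ratio as high as that of Hex-A was found in 4.31% of those 1324 regions, and one as low as that of Ldh peak 1 in 15.4%. By the highest regions of each replicate alone, 6 of 10 genes were counted in replicate 5 and 3 of 10 (Ldh, Hex-C and Glyp) in replicate 6. The backgrounds were 20.5% and 19.5%. Within 1000 bp of an own TSS the counts were 4 and 2 (Ldh and Glyp), against 7.44% and 7.60%. With only 2 replicates, these differences carry no error estimate.

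**Figure D4:**
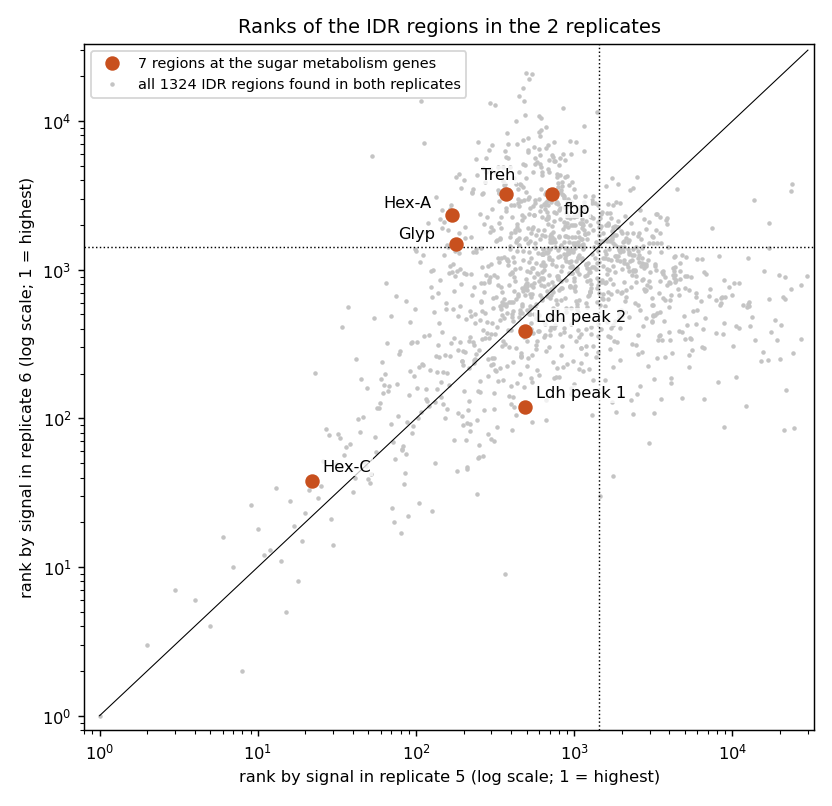
Rank in replicate 6 against rank in replicate 5 for the 1324 IDR regions matched in both, both on log scales, with the 7 member regions in colour, the diagonal for equal ranks and dotted lines at rank 1427. Glyp, Hex-A, Treh and fbp lie above the diagonal and beyond rank 1427 in replicate 6, and both Ldh peaks lie below the diagonal.

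The sequences around the summits were scanned on both strands for 7 motifs within 100 bp of each summit. The FOXO core TGTTTAC was in none of the 7 regions, against 6.52% of IDR regions and 6.12% of the TSS windows of protein-coding genes. Glyp had the nearest copy, 159 bp from its IDR summit. TGTTTTG, the insulin response element, was in 1 region (Ldh peak 2), against 12.8% of IDR regions and 9.57% of TSS windows. GAGAGAG was in 2 regions (Ldh peak 1 and Hex-A), against 13.2% and 4.69%. The GATA motif TGATAAG was in 1 (Hex-C), against 5.47% and 4.06%. The DRE motif TATCGATA, the E-box CACGTG and the ERR motif TCAAGGTCA were in none, against 2.38%, 2.24% and 0.140% of IDR regions and 6.45%, 2.80% and 0.0987% of TSS windows, each in that order. Across all member windows there were 37 copies of the FOXO core, or 2.41 per 10 kb against 2.02 over the 6 chromosomes. Of the 37, 4 (10.8%) lay within 100 bp of a pooled summit, against 7.10% of the 27045 copies on those chromosomes. These shares are not matched for region density, since the member windows held 49.4 pooled regions per 100 kb against 22.4 over those chromosomes. The 4 summits were weak, with pooled ranks from 10206 to 28566. The absence of a motif says only that these letters are not in the windows. Base composition differed among the regions: 4 of 7 had at most 30% G and C in the 201 bases around the summit (Treh 24.4%, Hex-C 26.9%, Glyp 29.4% and Ldh peak 1 29.9%), against 7.29% of IDR regions. The others had 38.3% (Hex-A), 40.8% (fbp) and 46.3% (Ldh peak 2), all above the IDR median of 37.8%. The 30% limit was not among the planned settings and lies just above Ldh peak 1, so the count is only a description.

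Below the IDR list, the member windows held many weaker regions, some of them in the gene bodies. The 10 windows held 76 pooled relaxed regions, 63 in replicate 5 and 82 in replicate 6. Of the 76 pooled regions, 17 had their summit in an intron, 6 in a 5′ UTR, 2 in a 3′ UTR and 1 in coding sequence of the member, and 50 lay outside it. The gene bodies thus held 26 of the 76 (34.2%), and they made up 34.9% of the window bases. Treh, the longest gene, with 6 TSS positions, held 19 pooled regions, and Tps1 held 1. Per 100 kb the member windows held 49.4 pooled regions, against 28.5 over the windows of all protein-coding genes. The authors' q was 0.01 or lower for 13 of the 76, the 7 IDR regions included. Copies of the FOXO core in the member windows numbered 8 at Treh, 5 at Glyp, 4 each at Glys, Hex-A, Tps1 and Pepck1, 3 each at Pfk and fbp and 1 each at Hex-C and Ldh. Copies per 10 kb ranged from 0.736 at Ldh to 3.21 at Treh, against 2.02 over the 6 chromosomes. The share of all gene windows with a copy is not given here, so these counts do not set the members apart. The Glyp copy nearest to the start, shown in capitals in the Glyp sequence, lay 40 bp from a pooled summit of signal 14.2 and rank 28566. At Ldh, where both IDR regions lie close to the start, the nearest copy on the chromosome was 7378 bp from an IDR summit, and at fbp it was 5242 bp away.

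Other enzymes and regulators of sugar metabolism were examined the same way, from a list chosen with earlier results known. Of 42 matched genes, 8 (19.0%) had an IDR region within 1000 bp of an own TSS, against the background of 7.71%, and 12 (28.6%) had one in the window, against 20.0%. The highest was at Gapdh2, glyceraldehyde-3-phosphate dehydrogenase, with a signal of 294, rank 28 and summit 162 bp upstream, and it ranked 80 in replicate 5 and 17 in replicate 6. In glycolysis Pgk, phosphoglycerate kinase (signal 158, rank 161, with the start of Bacc nearer, at 489 bp), and Eno, enolase (signal 118, rank 351), followed, which made 3 of 13 genes. For glycogen the counts were 2 of 3, with Pgm1, phosphoglucomutase (signal 93.8, rank 640), and UGP, UDP-glucose pyrophosphorylase (signal 83.6, rank 886). The UGP region ranked 613 in replicate 5 and 8696 in replicate 6. The remaining genes were sut1 (signal 83.7), where the start of slv was nearer, Gpdh1, glycerol-3-phosphate dehydrogenase (signal 79.7), and bigmax, a partner of the sugar sensor Mondo (signal 70.5). The Gpdh1 region ranked 798 in replicate 6, but replicate 5 had no region within 150 bp of its summit.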

How the data were processed

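The labels describe 2 biological replicates of 1 group. Per the deposited file notes, the relaxed list of a replicate came from its alignments and a control, and an IDR list came from the replicate and pooled lists. For the aligner and peak caller, a name is not given in the sources used here. Per the file layout, regions are narrowPeak intervals. The signal deposited by the authors has no stated scale, the deposited q-value column is −log10 of q, and the summit is the deposited offset. Read depth is unknown, so precision cannot be given. The dm6 lists were used, and the dm3 lists were not used here.

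Genes and TSSs came from Ensembl release 115 (transposable elements left out) and sequence from the RefSeq Release 6 genome. Distances, ranks and motif counts were computed with Python 3.11.15, numpy 2.4.6 and pandas 2.3.3 and checked on simulated data. Replicate regions were matched within 150 bp of the summit, taking the nearest. Named genes were the 10 members, genes with a start within 1000 bp of a member IDR summit or holding it, and other pathway genes with an IDR region within 1000 bp of a TSS; genes sharing a weaker region, and slv and Bacc, were named after their values were seen. Members and lists were chosen with earlier results of these data known. No p-value was computed. Other windows, distances, q limits, matching rules and each replicate alone were tried.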

Additional observations from a re-analysis of the deposited data

How the results depend on the processing

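Of the 27 alternatives for the counts, 20 stayed within 1.5 times the value reported and 7 did not. With the gene body alone, 0 members and 0 IDR regions were counted, since all 7 summits lie outside the genes. Using the highest regions of 1 replicate in place of the IDR list, the genes with a region in the window ranged from 3 (without replicate 5) to 6 (without replicate 6), the regions from 4 to 6, and the genes with one within 1000 bp of an own TSS from 2 to 4. Genes with a region of q of at most 0.01 ranged from 6 without replicate 6 to 9 without replicate 5, against 16.1% and 55.6% of protein-coding genes. Matching summits within 50 bp left 1 region among the highest of both replicates in place of 3, and any overlap gave 4. The share of all IDR regions under those rules is not given here. The TGTTTAC count was 1 within 200 bp (Glyp) in place of 0. Windows of 2 kb and 10 kb gave 5 and 7 genes, against 13.1% and 30.1% of protein-coding genes. Of 39 rank alternatives, 37 stayed within 1.5 times; by overlap, Glyp ranked 934 in replicate 6 in place of 1479, and Ldh peak 2 ranked 119 in place of 388. At 50 bp, Glyp in replicate 6 and both Ldh peaks in replicate 5 had no match and so no value. No paired analysis was possible because there was 1 group and no test. Signals have no stated scale, depth is unknown, and 2 replicates of whole larvae give no estimate of error.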

Other observations

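Mondo, a sugar-sensing transcription factor, and its partner bigmax had regions near their starts that ranked very differently in the replicates. The Mondo region had a pooled signal of 59.5 and rank 2031, below the IDR list, and lay 232 bp downstream of its start. It ranked 24737 in replicate 5 and 815 in replicate 6. The bigmax region had rank 1361 in the pooled list, 9542 in replicate 5 and 765 in replicate 6. At Hex-A and Treh, replicate 5 gave the better rank. Mondo was chosen for mention after its values were seen.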
